A study of Mus musculus with 6 samples.

Results

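The 9 genes described here carry iron into intestinal epithelial cells, store it, pass it on to the blood and sense its level. They were chosen by symbol: Tfrc, Slc11a2 and Cybrd1 for uptake, Fth1 and Ftl1 for storage, Slc40a1 and Heph for export, and Aco1 and Ireb2 for sensing. Each symbol matched 1 row of the deposited gene tables, so the set was 9 of 55416 gene rows. Their mRNA was measured by poly-A RNA sequencing in mouse small intestinal organoids, cultures of intestinal epithelium grown in Matrigel from mice aged 4 to 8 weeks. Every library, controls included, carried 2 transgenes in homozygous form, the doxycycline-responsive activator Rosa26-rtTA Tg/Tg and the cassette Col1A1-TetO-OSKM Tg/Tg, so that doxycycline switches on the reprogramming factors Oct4 (gene Pou5f1), Sox2, Klf4 and Myc. The 3 groups were untreated controls and organoids kept for 3 days in 0.1 or 0.5 µg/ml doxycycline, with 2 libraries each. The series calls these libraries biological replicates but does not say whether they came from separate mice or cultures, so p-values measure only the spread between these libraries. Doxycycline belongs to the tetracyclines, which bind metal ions, and no organoids lacking the OSKM transgene were analysed here, so effects of the drug and of the factors cannot be told apart.

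In an absorptive enterocyte, Cybrd1 reduces ferric iron at the brush border and the metal transporter Slc11a2 (DMT1) carries the ferrous iron inward. Iron that stays in the cell is held in ferritin, a shell built of heavy (Fth1) and light (Ftl1) chains, and iron that leaves passes through ferroportin (Slc40a1) and is oxidised by hephaestin (Heph). The transferrin receptor Tfrc takes up iron from transferrin, mainly in dividing cells. The iron regulatory proteins Aco1 (IRP1) and Ireb2 (IRP2) bind hairpins called iron-responsive elements when iron is scarce. Bound near the start of an mRNA they block its translation, and bound after the coding region of Tfrc they keep that mRNA from decay. Myc, one of the induced factors, has been described in other cells as a repressor of Fth1 and an activator of Ireb2 and Tfrc.

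The hairpins of the members are shown because the sensors among them act through such elements. UTRs of the GENCODE M21 transcripts (GRCm38) were searched on the sense strand for CNNNNNCAGTGN in which the 5 bases before CAGTG could pair with the 5 after CAGTGN, G-U pairs allowed. An element with 5 contiguous pairs was present in 160 of 21715 protein-coding genes (0.737%), and one with at least 4 pairs in 379 (1.75%). A match was present in 5 members. Capitals mark the CAGTG of the loop.
Fth1, 5′ UTR, chr19:9982730-9982759, plus strand: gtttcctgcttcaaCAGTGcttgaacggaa
Ftl1, 5′ UTR, chr7:45459780-45459809, minus strand: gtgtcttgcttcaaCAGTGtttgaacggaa
Slc40a1, 5′ UTR, chr1:45925466-45925495, minus strand: tccaacttcagctaCAGTGttagctaagtt
Slc11a2, 3′ UTR, chr15:100395154-100395183, minus strand: ggagccatcagagcCAGTGtgtttctatgg
Tfrc, 3′ UTR, element 1, chr16:32631217-32631246, plus strand: ataattatcggaagCAGTGccttccataat
Tfrc, 3′ UTR, element 2, chr16:32631596-32631625, plus strand: cacattatcgggagCAGTGtcttccataat
Tfrc, 3′ UTR, element 3, chr16:32631661-32631690, plus strand: gtctatatcggagaCAGTGatctccatatg
Tfrc, 3′ UTR, element 4, chr16:32631708-32631737, plus strand: gtaattatcgggaaCAGTGtttcccataat
The Slc11a2 element had 4 pairs and lay in 1 transcript of 4415 bases, and another Slc11a2 transcript of 3025 bases had no match. No match was found in the UTRs of Cybrd1, Heph, Aco1 or Ireb2, which says only that these letters with at least 4 such pairs are not there.

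Library totals ran from 45289760 to 72547738 expected counts, and all 9 members were among the 16975 genes that passed the filter on low counts. The induced factors checked the labels: their summed level was 38.9 to 40.4 TPM (a length-corrected level that sums to the same total in each library) in controls, 526 to 555 at 0.1 µg/ml and 1734 to 1896 at 0.5 µg/ml. The epithelial label was also checked. All 8 epithelial markers and all 12 absorptive enterocyte markers were above 0 in every library. Of the markers of other cells, Hbb-bt (red cells), Adgre1 and C1qb (macrophages), and Cdh5 and Emcn (vessels) had no counts in any library. Others rose at 0.5 µg/ml from a low level: Col1a1 (fibroblasts) from 0.381 to 3.92 CPM (counts relative to the TMM-adjusted library total), Dcn (fibroblasts) from 0 to 1.78, Tek (vessels) from 0.171 to 3.62, and Ptprc (leukocytes) from 0 to 0.283. Vim (fibroblasts) fell from 4.92 to 0.287 CPM and Klf1 (red cells) from 0.643 to 0.243 CPM. Some fibroblast markers were too low to test. Col1a2 went from 4 and 2 counts in controls to 0 and 0 at 0.5 µg/ml, and Col3a1 from 1 and 0 to 0 and 0. Pdgfra (5 and 2 to 14 and 7), Lum (0 and 0 to 6 and 10) and Thy1 (0 and 0 to 9 and 22) were higher. The OSKM cassette also carries the name Col1A1, and its part in the Col1a1 counts was not tested. Of the 4 tested leukocyte markers 2 rose, Ptprc and Cd68 (2.23 to 13.45 CPM). The other 2 fell, Itgam from 2.17 to 0.861 CPM and Mrc1 from 1.24 to 0.404 CPM. The summed fibroblast markers were 3.07 to 3.82 TPM in controls and 2.36 to 2.92 at 0.5 µg/ml, the summed endothelial markers 0.12 to 0.20 and 0.89 to 1.18, and their part in the members' changes was not tested. The summed enterocyte markers were 2002 to 2616 TPM in controls, 2664 to 3434 at 0.1 µg/ml and 1145 to 1200 at 0.5 µg/ml. The summed proliferation markers were 841 to 888, 789.6 to 844 and 719 to 749.7 TPM in the same order. In bulk RNA, fewer cells of a type and less RNA per cell cannot be told apart.

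The members did not move as a block. At 0.5 µg/ml against controls, Slc11a2, Ftl1 and Slc40a1 rose, Cybrd1, Fth1, Heph, Aco1 and Ireb2 fell, and Tfrc did not pass the test (edgeR's quasi-likelihood test on counts, two-sided, Benjamini-Hochberg adjusted p below 0.05 over all genes tested). That is 3 members higher and 5 lower, where 34.4% of all genes tested were called higher and 33.1% lower. At 0.1 µg/ml against controls 4 members rose (Slc11a2, Ftl1, Slc40a1 and Heph) and none fell, beside 20.8% of all genes called higher and 13.8% lower. Between the doses no member was higher at 0.5 µg/ml and 6 were lower (Slc11a2, Cybrd1, Fth1, Heph, Aco1 and Ireb2), beside 29.8% and 29.1% of all genes. The members' median log2 fold change was -0.39 at 0.5 µg/ml and 0.12 at 0.1 µg/ml against controls, where the medians over all genes were -0.0045 and 0.0175. Both comparisons with controls share the control libraries, and each dose also enters the comparison of doses, so they are not independent.

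**Figure D1:**
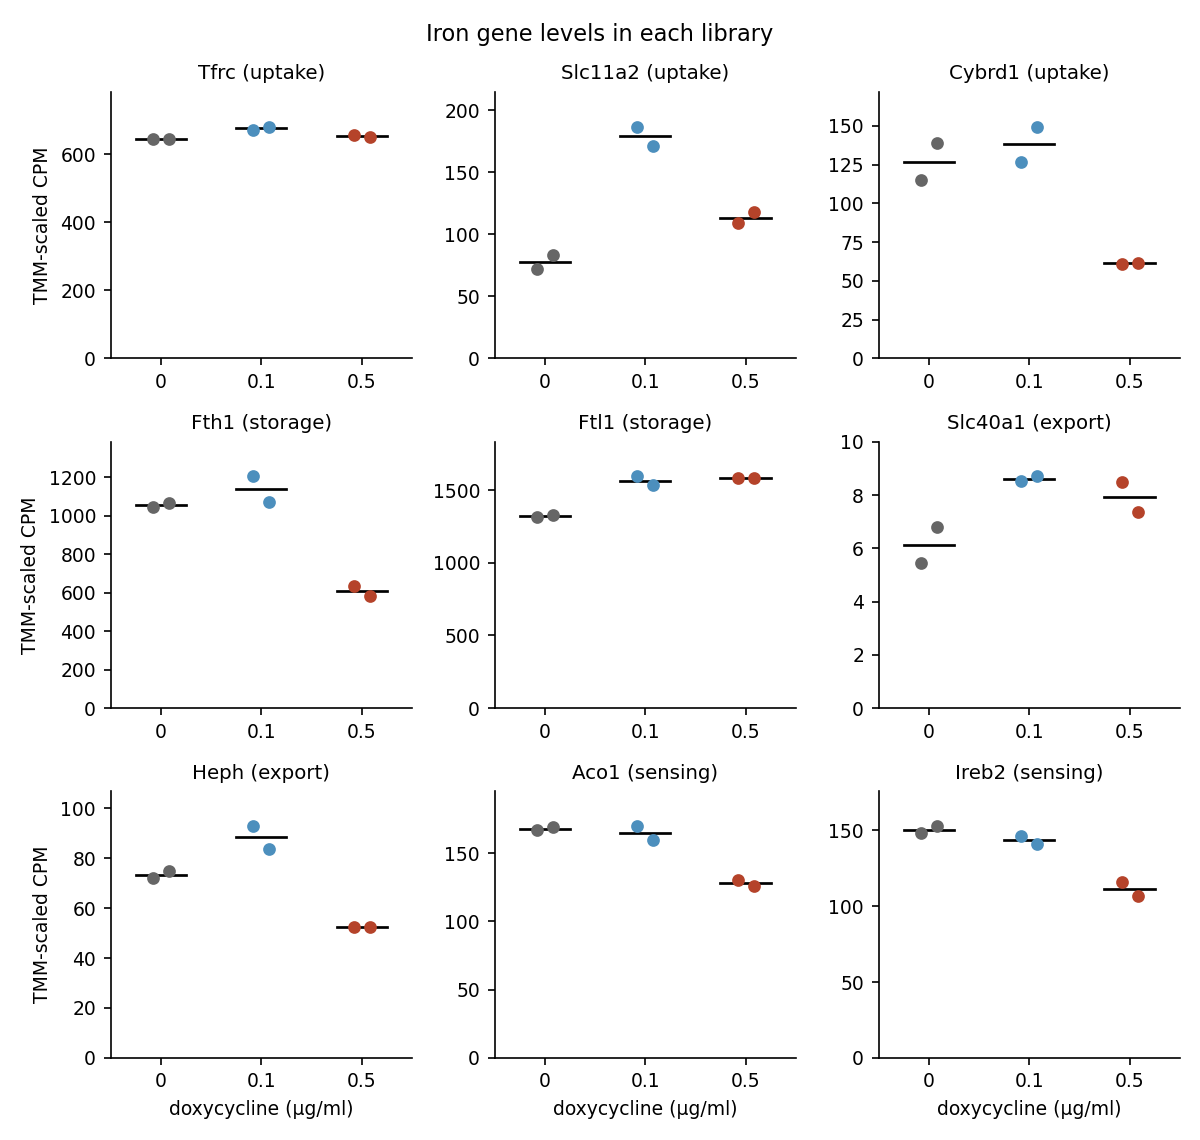
Normalised counts (CPM) of each of the 9 members by dose, with 1 point per library and a line at the mean of the 2 libraries of a group; each panel has its own vertical axis. Slc11a2 is highest at 0.1 µg/ml, Cybrd1, Fth1, Heph, Aco1 and Ireb2 are lowest at 0.5 µg/ml, and Tfrc lies between 645 and 681 CPM in all libraries.

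**Figure D2:**
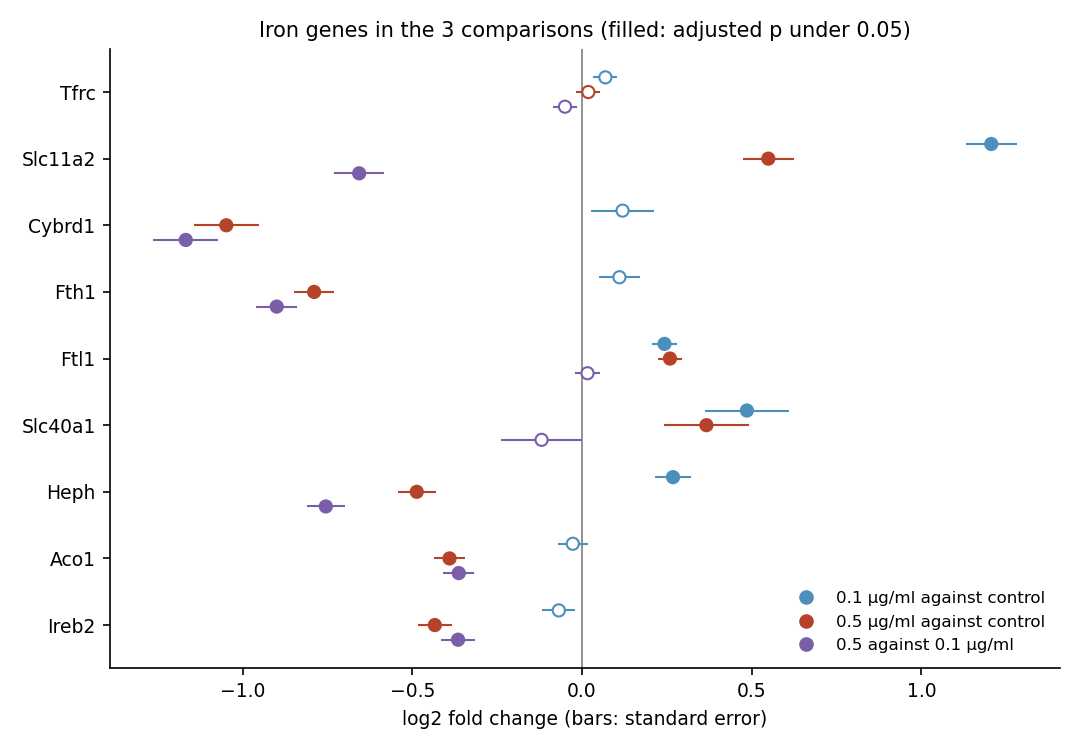
Log2 fold change of each member in the 3 comparisons from the edgeR fit, with bars of 1 standard error and filled points where the test was passed. Against controls at 0.5 µg/ml the values run from -1.05 (Cybrd1) to 0.55 (Slc11a2), and against controls at 0.1 µg/ml from -0.07 (Ireb2) to 1.21 (Slc11a2).

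Slc11a2 (ENSMUSG00000023030), the ferrous iron importer, had the largest rise among the members. Its libraries read 71.7 and 83.5 CPM in controls, 187 and 171 with 0.1 µg/ml, and 109 and 118 with 0.5 µg/ml. The 3 groups did not overlap, and both 0.1 µg/ml libraries were above both 0.5 µg/ml libraries. Against controls (77.6 ± 8.30 CPM, SD, n = 2) it was 2.31-fold higher at 0.1 µg/ml (log2 fold change 1.21, SE 0.07, edgeR adjusted p = 2e-06). At 0.5 µg/ml it was 1.46-fold higher (log2 0.55, SE 0.07, edgeR adjusted p = 1.13e-04), and between the doses it was 1.58-fold lower at 0.5 than at 0.1 µg/ml (log2 -0.66, SE 0.07, edgeR adjusted p = 4.17e-05). The rise at 0.5 µg/ml missed the threshold in limma on unfiltered TPM (adjusted p = 0.0556).

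The Slc11a2 tables also held a trace of which transcripts were counted. The authors' TPM divides each gene's expected count by the mean length of the transcripts their program assigned it to, so the ratio of count to TPM, scaled within a library, tracks that length. Set to the control mean, this relative length of Slc11a2 was 103.9 and 96.3% in controls, 85.6 and 87.1% with 0.1 µg/ml, and 98.1 and 96.5% with 0.5 µg/ml. Both 0.1 µg/ml libraries were below all other libraries, while the 0.5 µg/ml libraries lay among the controls. Among 13114 genes with at least 20 counts in every library, 3.16% had a mean shift as large at 0.1 µg/ml. The tables are per gene, so the transcript with the hairpin and the one without it cannot be told apart in them. Slc40a1 was the other member with a shift at 0.1 µg/ml, but in 1 library: 97.2 and 80.4%, beside 101.4 and 98.7% in controls and 108.1 and 98.4% at 0.5 µg/ml. The group means of the other 7 members stayed between 98.7 and 101.8% of control. These ratios were computed after the data had been seen and were not tested.

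**Figure D3:**
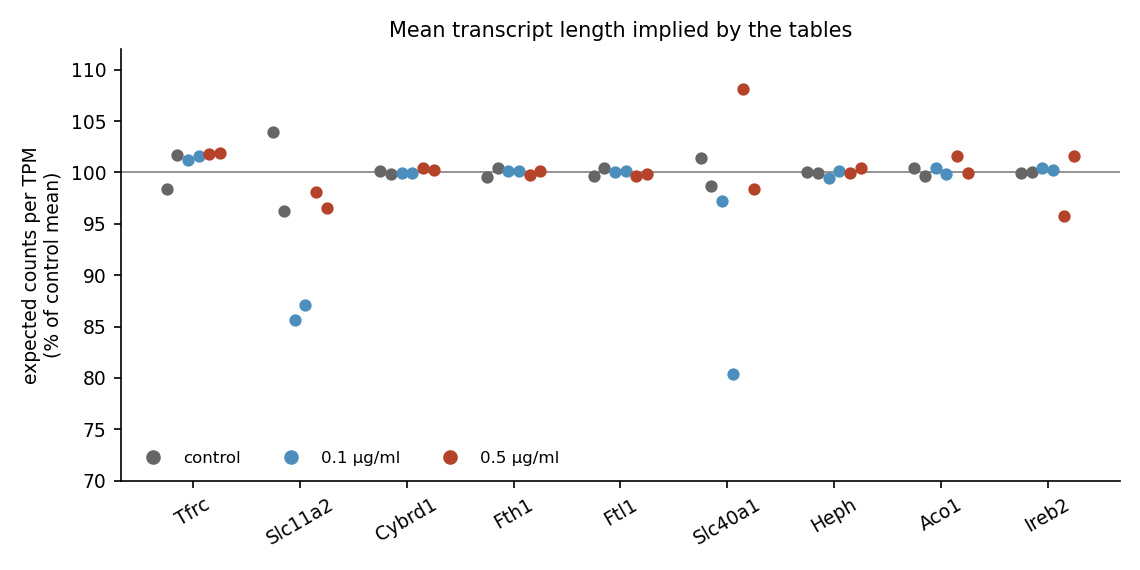
Relative length of the transcripts counted for each member (expected count divided by TPM, scaled within the library, in percent of the control mean, on an axis that starts at 70), with 1 point per library. Slc11a2 is at 85.6 and 87.1% in the libraries with 0.1 µg/ml doxycycline and at 96.3 to 103.9% elsewhere.

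Cybrd1 (ENSMUSG00000027015), the brush border ferric reductase that works before Slc11a2, went the other way at the high dose and had the largest fall among the members. It read 115 and 139 CPM in controls, 127 and 149 with 0.1 µg/ml, and 61.1 and 61.6 with 0.5 µg/ml. Both 0.5 µg/ml libraries were below all others, while controls and 0.1 µg/ml libraries overlapped. Cybrd1 fell 2.07-fold at 0.5 µg/ml against controls (log2 -1.05, SE 0.10, edgeR adjusted p = 6.23e-06) and was 2.25-fold lower than at 0.1 µg/ml (log2 -1.17, SE 0.10, edgeR adjusted p = 4.81e-06). At 0.1 µg/ml the difference from controls did not pass (log2 0.12, SE 0.09, edgeR adjusted p = 0.358), and its sign turned when 1 library was left out, as given with the processing alternatives. Genes near Cybrd1 over the 2 log2 fold changes against controls were sought among tested genes with at least 5 CPM in the mean of a group. Members, genes without a symbol, pseudogenes and Gm or Rik symbols were left out. The 5 nearest were Lpar1 (-1.03 at 0.5 and 0.16 at 0.1 µg/ml), Sec16b (-1.09 and 0.15), Atp1b1 (-0.997 and 0.12), Blvrb (-1.07 and 0.06) and Fxyd3 (-1.02 and 0.17). Their Euclidean distances from Cybrd1 ran from 0.0474 to 0.0603 over 3 dose groups that share the controls, which is a description only.

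Tfrc (ENSMUSG00000022797), the transferrin receptor, was the steadiest member. Its 6 libraries lay between 645 and 681 CPM: 646 and 645 in controls, 672 and 681 with 0.1 µg/ml, and 657 and 649.5 with 0.5 µg/ml. The groups did not overlap, but the gaps between them were small beside the level. The log2 difference from controls was 0.07 at 0.1 µg/ml (SE 0.04, edgeR adjusted p = 0.167) and 0.02 at 0.5 µg/ml (SE 0.04, edgeR adjusted p = 0.664). It was -0.05 between the doses (SE 0.04, edgeR adjusted p = 0.25). The sign at 0.5 µg/ml depended on the scaling. Tfrc was lower at 0.5 µg/ml in TPM, at 166.4 ± 2.21 against 179 ± 0.82 in controls (SD, n = 2), and the log2 difference was -0.07 with upper quartile scaling and -0.10 in limma on unfiltered TPM, which alone passed the threshold (adjusted p = 0.0431).

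Storage split between the 2 ferritin chains. Fth1 (ENSMUSG00000024661), the heavy chain that carries the ferroxidase activity of ferritin, read 1043 and 1066 CPM in controls, 1204 and 1072 with 0.1 µg/ml, and 635 and 585 with 0.5 µg/ml. Both 0.5 µg/ml libraries were below all others. Fth1 fell 1.73-fold at 0.5 µg/ml against controls (log2 -0.79, SE 0.06, edgeR adjusted p = 1.58e-06) and was 1.87-fold lower than at 0.1 µg/ml (log2 -0.90, SE 0.06, edgeR adjusted p = 1.16e-06). At 0.1 µg/ml its difference from controls did not pass (log2 0.11, SE 0.06, edgeR adjusted p = 0.184). These figures concern mRNA, and translation through the hairpin in the 5′ UTR was not measured.

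Ftl1 (ENSMUSG00000050708), the light chain that aids iron core formation, rose at both doses. Its libraries read 1317 and 1332 CPM in controls, 1595 and 1539 with 0.1 µg/ml, and 1583 and 1586 with 0.5 µg/ml. The treated libraries were all above the controls, and the doses overlapped. Ftl1 was 1.20-fold higher at 0.5 µg/ml (log2 0.26, SE 0.04, edgeR adjusted p = 1.31e-04) and 1.18-fold higher at 0.1 µg/ml (log2 0.24, SE 0.04, edgeR adjusted p = 6.74e-04), with no difference passing between the doses (log2 0.02, SE 0.04, edgeR adjusted p = 0.725). Both rises missed the threshold in limma on unfiltered TPM (adjusted p = 0.0728 at 0.5 and 0.0971 at 0.1 µg/ml).

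The ratio of the chains was also taken within single libraries, where scaling between libraries cancels. Fth1 TPM divided by Ftl1 TPM was 0.837 and 0.845 in controls, 0.797 and 0.735 with 0.1 µg/ml, and 0.423 and 0.389 with 0.5 µg/ml. The groups did not overlap, and the mean ratio went from 0.841 ± 0.00582 in controls through 0.766 ± 0.0436 to 0.406 ± 0.0245 (SD, n = 2). The ratio is given as a description and was not tested. Ferritin genes have near-identical copies that could share reads. There were 16 ferritin rows in the deposited data, of which 11 were at 0 in every library. Ftl1-ps1 took 2.74 to 3.16% of the light-chain counts, with a similar share in each group. Fth-ps2 had 5 to 14 counts beside 27731 to 87342 for Fth1. The calls for Fth1 and Ftl1 were the same when the copies were summed with them.

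**Figure D4:**
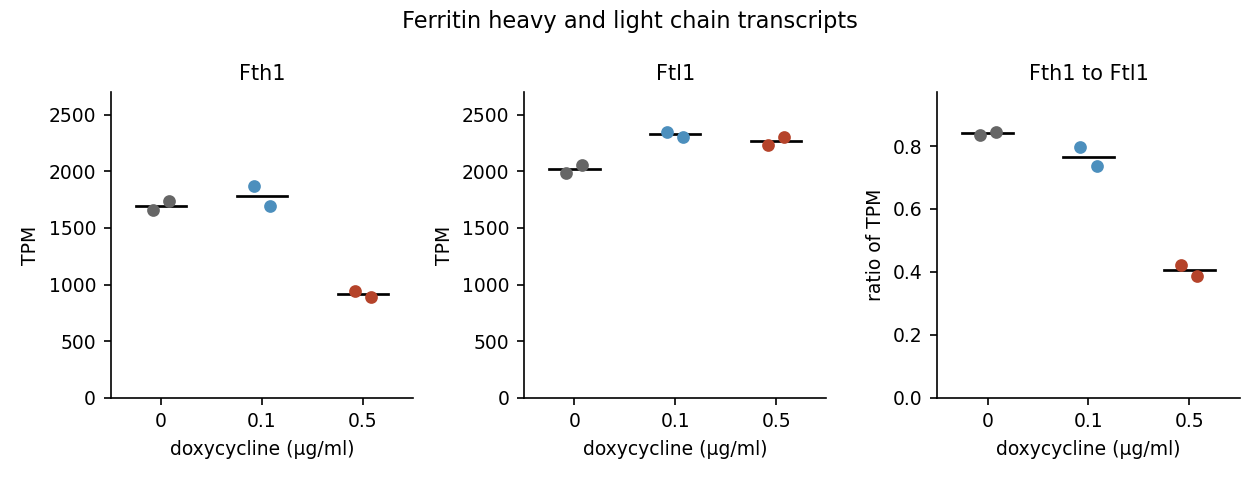
Ferritin heavy chain (Fth1) and light chain (Ftl1) levels in TPM and the ratio Fth1/Ftl1, with 1 point per library and a line at the group mean, by dose of doxycycline. The ratio is 0.837 and 0.845 in controls and 0.423 and 0.389 at 0.5 µg/ml, with Fth1 lower and Ftl1 higher than in controls.

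Export also split. Slc40a1 (ENSMUSG00000025993), the only known iron exporter of mammalian cells, was the lowest of the 9 members, with 270 to 618 counts per library. It read 5.47 and 6.82 CPM in controls, 8.52 and 8.70 with 0.1 µg/ml, and 8.50 and 7.38 with 0.5 µg/ml. All treated libraries were above the controls, but the lower 0.5 µg/ml library stood nearer to control replicate 2 than the controls stood to each other. Slc40a1 was 1.40-fold higher at 0.1 µg/ml (log2 0.49, SE 0.12, edgeR adjusted p = 0.013) and 1.29-fold higher at 0.5 µg/ml (log2 0.37, SE 0.13, edgeR adjusted p = 0.0259). The calls depended on the processing and on single libraries. The call at 0.5 µg/ml was lost under 6 of 14 alternatives, among them upper quartile scaling (adjusted p = 0.0767) and limma on TPM (0.279 to 0.443), where the log2 fold change went down to 0.17, and the call at 0.1 µg/ml was lost under 4 of 14, among them limma on unfiltered TPM (adjusted p = 0.139). Without control replicate 1 the adjusted p was 0.0942 at 0.1 and 0.17 at 0.5 µg/ml, without the 0.5 µg/ml replicate 1 it was 0.196 at 0.5 µg/ml, and without either 0.1 µg/ml library it was 0.0558 or 0.0542 at 0.1 µg/ml. Slc40a1 is also a macrophage gene, and the summed markers of macrophages and other leukocytes were 3.74 to 4.05 TPM in controls, 5.82 to 6.61 at 0.1 µg/ml and 14.9 in both 0.5 µg/ml libraries. Cd68 made up most of the 0.5 µg/ml sums, while Adgre1 and C1qb of those 12 markers were at 0 in every library. Of the 4 tested markers 2 rose at 0.5 µg/ml against controls (Cd68 and Ptprc) and 2 fell. The falls were Itgam, from 2.17 to 0.861 CPM, and Mrc1, from 1.24 to 0.404 CPM. The part of these markers in the Slc40a1 level was not tested.

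Heph (ENSMUSG00000031209), the copper oxidase that works with ferroportin, rose at the low dose and fell at the high dose. It read 72.1 and 74.8 CPM in controls, 92.9 and 83.9 with 0.1 µg/ml, and 52.3 and 52.5 with 0.5 µg/ml. The 3 groups did not overlap. Heph was 1.20-fold higher at 0.1 µg/ml (log2 0.27, SE 0.05, edgeR adjusted p = 0.00419) and 1.40-fold lower at 0.5 µg/ml (log2 -0.49, SE 0.06, edgeR adjusted p = 3.22e-05), and 1.69-fold lower at 0.5 than at 0.1 µg/ml (log2 -0.76, SE 0.06, edgeR adjusted p = 2.25e-06). The low-dose rise lost its call without 0.1 µg/ml replicate 1 (adjusted p = 0.0528) and in limma on TPM (0.0562 to 0.117), while the high-dose fall passed under all 14 alternatives run.

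The summed enterocyte markers were, like Heph, highest at 0.1 µg/ml and lowest at 0.5 µg/ml by group mean. Cybrd1 and Fth1 shared the fall at 0.5 µg/ml, while their differences from controls at 0.1 µg/ml did not pass the test. Of the 12 enterocyte markers 9 fell and none rose at 0.5 µg/ml against controls, with a median log2 fold change of -1.05. Of all genes tested 33.1% were called lower and 34.4% higher there. At 0.1 µg/ml 7 markers rose and 2 fell, with a median of 0.33, beside 20.8% of all genes called higher and 13.8% lower. Slc11a2 shared the low-dose direction of the markers but not the high-dose one. The part of cell composition in the members' changes was not tested.

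The sensors fell together at the high dose. Aco1 (ENSMUSG00000028405), which serves as a cytosolic aconitase when it holds an iron-sulfur cluster and binds hairpins when it does not, read 167 and 169 CPM in controls, 169.9 and 159.7 with 0.1 µg/ml, and 130.4 and 126 with 0.5 µg/ml. Ireb2 (ENSMUSG00000032293), which is degraded when iron is plentiful, read 148 and 153 CPM in controls, 146 and 141 with 0.1 µg/ml, and 116 and 107 with 0.5 µg/ml. For both genes the 0.5 µg/ml libraries were below all others. Aco1 fell 1.31-fold against controls (log2 -0.39, SE 0.05, edgeR adjusted p = 3.58e-05) and Ireb2 fell 1.35-fold (log2 -0.43, SE 0.05, edgeR adjusted p = 3.21e-05). Against 0.1 µg/ml the log2 difference was -0.36 for Aco1 (SE 0.05, edgeR adjusted p = 8.66e-05) and -0.37 for Ireb2 (SE 0.05, edgeR adjusted p = 1.53e-04). Neither passed at 0.1 µg/ml against controls, with log2 differences of -0.03 (SE 0.04, edgeR adjusted p = 0.683) and -0.07 (SE 0.05, edgeR adjusted p = 0.319). The TPM ratio of Aco1 to Ireb2 was 1.73 and 1.71 in controls, 1.79 and 1.76 with 0.1 µg/ml, and 1.64 and 1.85 with 0.5 µg/ml, so the 0.5 µg/ml libraries spanned the others.

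On the length-corrected TPM scale the ferritins dominated the set. Ftl1 (2019 ± 46.4 TPM, SD, n = 2) stood above Fth1 (1698 ± 50.7) and Tfrc (179 ± 0.82) in controls. Aco1 and Slc11a2 followed and overlapped (53.9 and 56.6 against 47.7 and 61.6 TPM), then Ireb2 and Cybrd1, which also overlapped (31.1 and 33.0 against 25.4 and 31.7), then Heph (18.5 and 19.8) and Slc40a1 (2.39 and 3.15). At 0.1 µg/ml Slc11a2 stood alone between Tfrc and Aco1, at 147.7 and 135 TPM. At 0.5 µg/ml Cybrd1 (12.6 and 13.1) had dropped to the level of Heph (12.6 and 12.9), and the libraries of these genes overlapped. The summed TPM of the 9 members was 4007 and 4170 in controls, 4689 and 4455 with 0.1 µg/ml, and 3501 and 3531 with 0.5 µg/ml, and the ferritins made up 89.7 to 91.1% of it in every library. Without the ferritins the sum was 359 and 384, 465 and 458, and 328 and 339 TPM in the same order, again highest at 0.1 µg/ml and lowest at 0.5 µg/ml.

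The other genes of iron and heme handling were taken from a list of 79, of which 69 passed the filter on low counts. At 0.5 µg/ml against controls 14 rose, 40 fell and 15 did not pass, with a median log2 fold change of -0.23. At 0.1 µg/ml 17 rose, 14 fell and 38 did not pass. Between the doses 9 were higher and 39 lower at 0.5 µg/ml, with a median of -0.21. The counts read beside the shares of all genes given above.

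**Figure D5:**
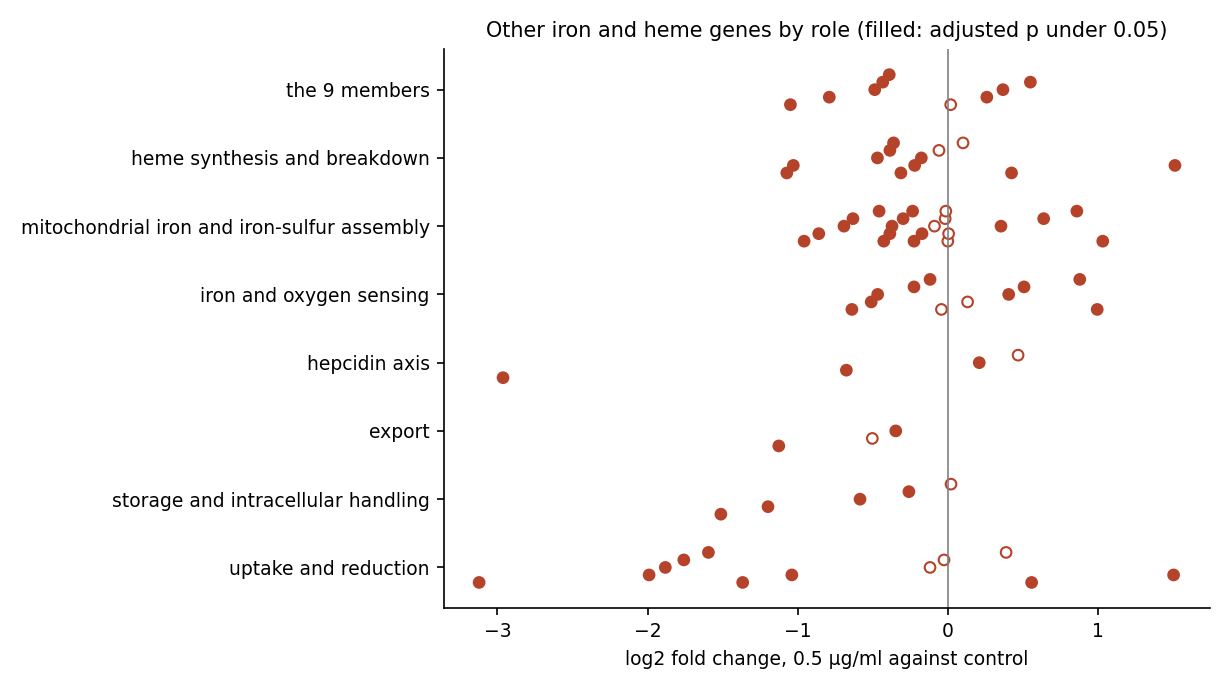
Log2 fold change at 0.5 µg/ml against controls of the tested iron and heme genes by role, with the 9 members in the top row, 1 point per gene, filled where the gene passed the test; Scara5, which had no counts in controls, is left out. The median over tested genes is lowest for uptake and reduction, at -1.20, and nearest to 0 for iron and oxygen sensing, at -0.04.

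Among 12 tested genes of uptake and reduction, 2 rose and 7 fell at 0.5 µg/ml. Those that rose were Slc39a8 and Slc39a14. Slc39a8 read 95.74 CPM in controls, 74.39 at 0.1 µg/ml and 271.3 at 0.5 µg/ml by group mean. Slc39a14 read 203.6, 297.9 and 299.6 CPM in the same order. Steap2, a metalloreductase of the family that reduces iron taken up with transferrin, fell at both doses, from 57.1 ± 1.01 CPM in controls to 29.7 ± 1.12 at 0.1 µg/ml and 14.4 ± 0.829 at 0.5 µg/ml (SD, n = 2; log2 -0.94 and -1.99, edgeR adjusted p = 1.14e-06 and 2e-09). Tf, transferrin itself, and Hfe, a partner of Tfrc mutated in hereditary hemochromatosis, fell at 0.5 µg/ml from 2.12 ± 0.133 to 0.572 ± 0.0317 CPM and from 1.98 ± 0.419 to 0.580 ± 0.0750 CPM. Tfrc itself, the receptor of that route, did not pass the test. Neither Tf nor Hfe passed at 0.1 µg/ml (edgeR adjusted p = 0.0877 and 0.0939).

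Of 6 tested genes of storage and handling 1 rose and 4 fell at 0.5 µg/ml. The iron chaperones Pcbp2 and Pcbp4 fell there, Pcbp2 from 435 ± 0.569 to 289.8 ± 7.93 CPM (log2 -0.59) and Pcbp4 from 13.1 ± 0.214 to 4.57 ± 0.283 CPM (log2 -1.51). Pcbp1 of the same family did not pass (427.5 and 433.7 CPM, edgeR adjusted p = 0.665). Scara5, a ferritin receptor, had no counts in controls and reached 0.486 CPM at 0.1 µg/ml and 1.95 ± 0.510 at 0.5 µg/ml. Against a floor of 3 counts per control library this was at least 8.06-fold and at least 32.4-fold higher, at a low level.

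Of 3 tested export genes, all transporters linked to heme or porphyrins, Abcg2 and Flvcr1 fell at 0.5 µg/ml, by 1.13 and 0.35 on the log2 scale. Abcg2 went from 42.2 ± 0.788 to 19.2 ± 3.08 CPM and did not pass at 0.1 µg/ml (edgeR adjusted p = 0.818), whereas Flvcr1 was slightly higher there (log2 0.17, edgeR adjusted p = 0.0483). Of 4 tested genes of the hepcidin axis 1 rose, 2 fell and 1 did not pass at 0.5 µg/ml. Neo1, a receptor for hemojuvelin, fell from 240.3 to 150.4 CPM (log2 -0.68). Hamp2 also fell, near the floor, from 16 and 18 counts in controls to 2 and 2. Erfe, which encodes erythroferrone, rose from 34.8 to 40.2 CPM (log2 0.21, edgeR adjusted p = 0.00831). In TPM the Erfe libraries overlapped, at 17.91 and 18.16 in controls and 17.09 and 19.79 at 0.5 µg/ml.

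Sensing genes other than the members moved in both directions, 4 up and 5 down of 11 at 0.5 µg/ml. Egln3, an iron-dependent oxygen sensor, rose from 105.7 ± 11.5 to 210.6 ± 2.60 CPM (log2 0.99, edgeR adjusted p = 5.15e-07), and Glrx3, a cytosolic glutaredoxin that handles iron-sulfur clusters, rose from 107 to 197 CPM (log2 0.88). Egln1, the main prolyl hydroxylase of the same family as Egln3, fell from 102.6 to 65.9 CPM (log2 -0.64).

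Of 21 genes of mitochondrial iron and iron-sulfur assembly 4 rose and 12 fell at 0.5 µg/ml. Cisd3, an iron-sulfur protein, rose from 72.5 to 148 CPM (log2 1.03), while Slc25a28 (mitoferrin 2), an importer of iron into mitochondria, fell from 66.8 to 34.4 CPM (log2 -0.96) and Lyrm4, a partner of the cluster-building desulfurase, fell from 20.5 to 11.3 CPM (log2 -0.86). Of 12 tested heme genes 2 rose and 8 fell. Hmox1, the inducible heme oxygenase that releases iron from heme, rose from 11.1 ± 0.590 through 13.4 ± 0.431 to 31.5 ± 0.570 CPM (log2 1.51 at 0.5 µg/ml, edgeR adjusted p = 3.22e-08, and 0.28 at 0.1 µg/ml, adjusted p = 0.0116). Blvrb, a biliverdin reductase, fell from 18.3 to 8.69 CPM and Cpox, an enzyme of heme synthesis, from 228 to 111.8 CPM at 0.5 µg/ml. Hmox1 is also abundant in macrophages, whose markers moved in both directions, as given for Slc40a1, and their part in the Hmox1 level was not tested.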

How the data were processed

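Poly-A RNA from 6 organoid libraries (2 per group) was sequenced as 100 bp paired-end reads with a directional kit, per the labels' protocols. Per the submitters' processing notes, the tools were STAR 2.7.3a, RSEM 1.3.3, FastQC and Trim Galore, with the builds GRCm39 and mm10 named but not their roles. The sources used here give no strand setting. The authors deposited RSEM-style expected counts and TPM values per gene, per the file headers. Symbols came from GENCODE M21, which matched 52083 of 55416 rows (94%).

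Expected counts were rounded, filtered with filterByExpr (16975 genes kept), scaled by TMM and fitted with edgeR 4.0.16 (R 4.3.3) over all 6 libraries, with 3 residual degrees of freedom. Tests were two-sided quasi-likelihood tests adjusted by Benjamini-Hochberg, with a threshold of 0.05. The standard error is the absolute log2 fold change divided by the square root of F. The fit was also run on simulated data. In that simulation few genes changed, and only at the high dose, unlike in these data. The alternatives were DESeq2 1.42.0, upper quartile scaling, no filter, limma 3.58.1 on log2 TPM (pseudocount 1 or 0.1), a replicate block and leaving out each library. Replicates differed by more than counting noise in each group. The members and lists were chosen with earlier results of these data known. All members are named, and of each list the up to 3 tested genes with the largest absolute change at 0.5 µg/ml among those past the test and at 1 CPM or more in a group. Pcbp1, Slc39a8 and Slc39a14 are named besides, as genes of their lists that did not fall at that dose, and Hamp2, which fell but stayed below 1 CPM. Gene coordinates are left out since it is unclear which named build underlies the tables.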

Additional observations from a re-analysis of the deposited data

How the results depend on the processing

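Of 384 recomputed values for single members, 349 kept their direction and side of the threshold, 17 lost the call, 4 gained it and 14 turned sign, none of these 14 from a called value. Tfrc at 0.5 µg/ml against controls turned to -0.0704 with upper quartile scaling, to -0.1049 in limma on log2(TPM + 1) with or without the filter and to -0.1055 with a pseudocount of 0.1, and ran from -0.0112 to 0.0175 with 1 library left out. Cybrd1 at 0.1 µg/ml ran from -0.0282 to 0.241 with 1 library left out. Ftl1 between the doses turned to -0.0338 with upper quartile scaling and to -0.0398 in limma under its 3 settings, and ran from -0.0128 to 0.0534 with 1 library left out. Members called at 0.1 µg/ml, 4 in the reported fit, were 1 (Slc11a2) in limma without a filter and 2 to 4 with 1 library left out, the 2 being Slc11a2 and Ftl1 without 0.1 µg/ml replicate 1. The other iron and heme genes called at that dose went from 31 to 16 in limma without a filter. Apart from the limits given, the cause was not tested. Tfrc between the doses passed under 4 alternatives (adjusted p = 0.0298 with upper quartile scaling and 0.0412 to 0.0448 in limma). Libraries of equal replicate number showed no shared deviation across groups (correlations from -0.039 to 0.0767). This cannot tell whether equal numbers came from the same mouse or culture. With the replicate block 8, 4 and 6 members were called at 0.5 µg/ml, at 0.1 µg/ml and between the doses, as without it. With 2 libraries per group, differences of the size of that of Tfrc (0.02 on the log2 scale) are below its standard error of 0.04. Slc40a1 rests on the fewest counts of the members, 270 to 618 per library.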
